A study of Mus musculus with 16 samples.

Results

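Long noncoding RNAs are transcripts that are not known to be translated into protein, and 10 of them are described here across 16 cultures of mouse primary cortical neurons: Malat1, Neat1, Meg3, Rian, Mirg, Miat, Snhg11, Pvt1, Gas5 and H19. They were chosen by gene symbol, and they account for 104 of the 135202 isoforms and 10 of the 53679 gene symbols in the table. Values are in FPKM, a read count scaled by isoform length and by library depth, and were summed over the isoforms of a gene. The cultures came from wild-type embryos at E15 and formed 4 groups of 4. CONTROL-VEH (cultures 1 to 4) had vehicle and a sham step, and the treatment label calls the vehicle cultures untreated. CONTROL-TIA (5 to 8) had 10 μM tianeptine (TIA), an atypical antidepressant, for 24 h from DIV 8. OGD-VEH (9 to 12) had 3 h of oxygen-glucose deprivation (OGD), an in vitro model of ischaemia, on DIV 9. OGD-TIA (13 to 16) had both. RNA was taken after 6 h of reoxygenation. The study calls the cultures of a group biological replicates, but no source used here says whether they came from separate dissections, so p-values measure the spread between these cultures only.

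Long noncoding RNAs act in several ways. Malat1 and Neat1 are neighbours in the genome and stay in the nucleus. Malat1 collects in nuclear speckles, where splicing factors are stored, and the long form of Neat1 is the scaffold of paraspeckles, bodies that hold RNA-binding proteins. Meg3, Rian and Mirg are read in one direction from the maternal copy of the imprinted Dlk1-Dio3 domain, and Rian and Mirg carry small RNAs within them. Gas5 and Snhg11 are host genes of small nucleolar RNAs (snoRNAs), which guide the modification of ribosomal RNA. Miat is a nuclear RNA abundant in neurons, Pvt1 lies beside Myc, and H19 is an imprinted RNA of embryonic tissue.

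The levels spanned a wide range. Per length, Meg3 was the most abundant member, with a mean of 2156 FPKM over the 16 cultures and rank 44 among all genes, followed by Rian (1817 FPKM, rank 60) and Gas5 (1156 FPKM, rank 106). Malat1 had a mean of 419.7 FPKM, Miat 181 FPKM, Snhg11 39.9 FPKM and Mirg 33.9 FPKM. Neat1 had a mean of 8.42 FPKM and Pvt1 7.32 FPKM, so these were not abundant in these libraries. H19 had a mean of 0.402 FPKM, which is an estimated 9.27 to 51.7 reads in a culture. Together the 10 members made up 0.488 to 0.629% of the summed FPKM in CONTROL-VEH, 0.592 to 0.627% in CONTROL-TIA, 0.341 to 0.521% in OGD-VEH and 0.436 to 0.541% in OGD-TIA.

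The stranded mRNA libraries held an estimated 19.9 to 25.9 M reads, above the 18 to 23 M aligned reads in the labels, and read numbers below scale with the estimate, and the number of cultures per group limited the precision. Differences were tested with limma on log2(FPKM + 0.1), which understates the change of low genes. Differentially expressed genes (DEGs) had to reach an adjusted p (padj) of 0.05 or less together with a change of 1 or more in either direction on the log2 scale. Summed markers of neurons, 9 genes, were at 1986 to 2663 FPKM in CONTROL-VEH and at 1029 to 1853 FPKM in OGD-VEH, and 6 of the 9 had an unadjusted p under 0.05 with lower values. Summed markers of astrocytes, 6 genes, were at 449.7 to 706 FPKM in CONTROL-VEH and at 613 to 1597 FPKM in OGD-VEH. Those of the oligodendrocyte lineage, 6 genes, were at 125 to 159 and at 191 to 416 FPKM, and those of dividing progenitors, 6 genes, at 106 to 163 and at 148 to 427 FPKM. Fibroblast and meningeal markers, 6 genes, summed to 45.3 to 60.0 and to 51.8 to 225 FPKM, most of it Pdgfra, which oligodendrocyte precursors also express (34.6 to 46.6 and 41.6 to 222 FPKM). Dcn, a fibroblast marker, was at 9.93 to 14.4 and at 2.20 to 9.65 FPKM (log2 fold change -1.24, padj = 0.0698, limma), Col1a1 and Lum had lower means in OGD-VEH, and Col1a2 and Col3a1 were at most at 0.240 FPKM. Microglial markers, 6 genes, summed to at most 3.03 FPKM and those of endothelial and mural cells, 8 genes, to at most 7.52 FPKM in any culture, and no marker on these lists was at 0 in all cultures. Among the markers, Syt1 of neurons fell, and Olig1, Olig2 and Cspg4 of the oligodendrocyte lineage and Nes of progenitors rose as DEGs in OGD-VEH. In bulk RNA, fewer cells of a type and less RNA per cell cannot be told apart, and the part of cell make-up in the results below was not tested. Culture 9 of OGD-VEH lay near or within the controls for several members, and culture 12 of OGD-VEH and culture 16 of OGD-TIA were the farthest from them for several others.

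After OGD without TIA, 2 of the 9 members tested changed: Snhg11 fell to 0.267 times the CONTROL-VEH level and Gas5 rose to 1.47 times (padj = 0.0449 and 0.038, limma). Only Snhg11 was a DEG, which is 1 of 9 members against 4.09% of the 16346 genes tested, and 2 of 9 had a padj of at most 0.05 against 8.44% of all genes. Among 1217 genes of a noncoding type in the annotation, 2.55% were DEGs. That set leaves out Snhg11, which the annotation types as protein coding. When both OGD groups were set against both control groups, 5 of 9 members had a padj of at most 0.05 against 32.1% of 16313 genes: Meg3, Rian, Miat and Snhg11 fell and Gas5 rose. Snhg11 alone was a DEG there, against 4.78% of all genes. The median log2 fold change of all genes was 0.10 in OGD-VEH against CONTROL-VEH and 0.08 in the pooled comparison. The groups CONTROL-VEH and OGD-VEH did not overlap for 3 of the 9 members, Rian, Pvt1 and Gas5, against 22.7% of all genes.

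**Figure D1:**
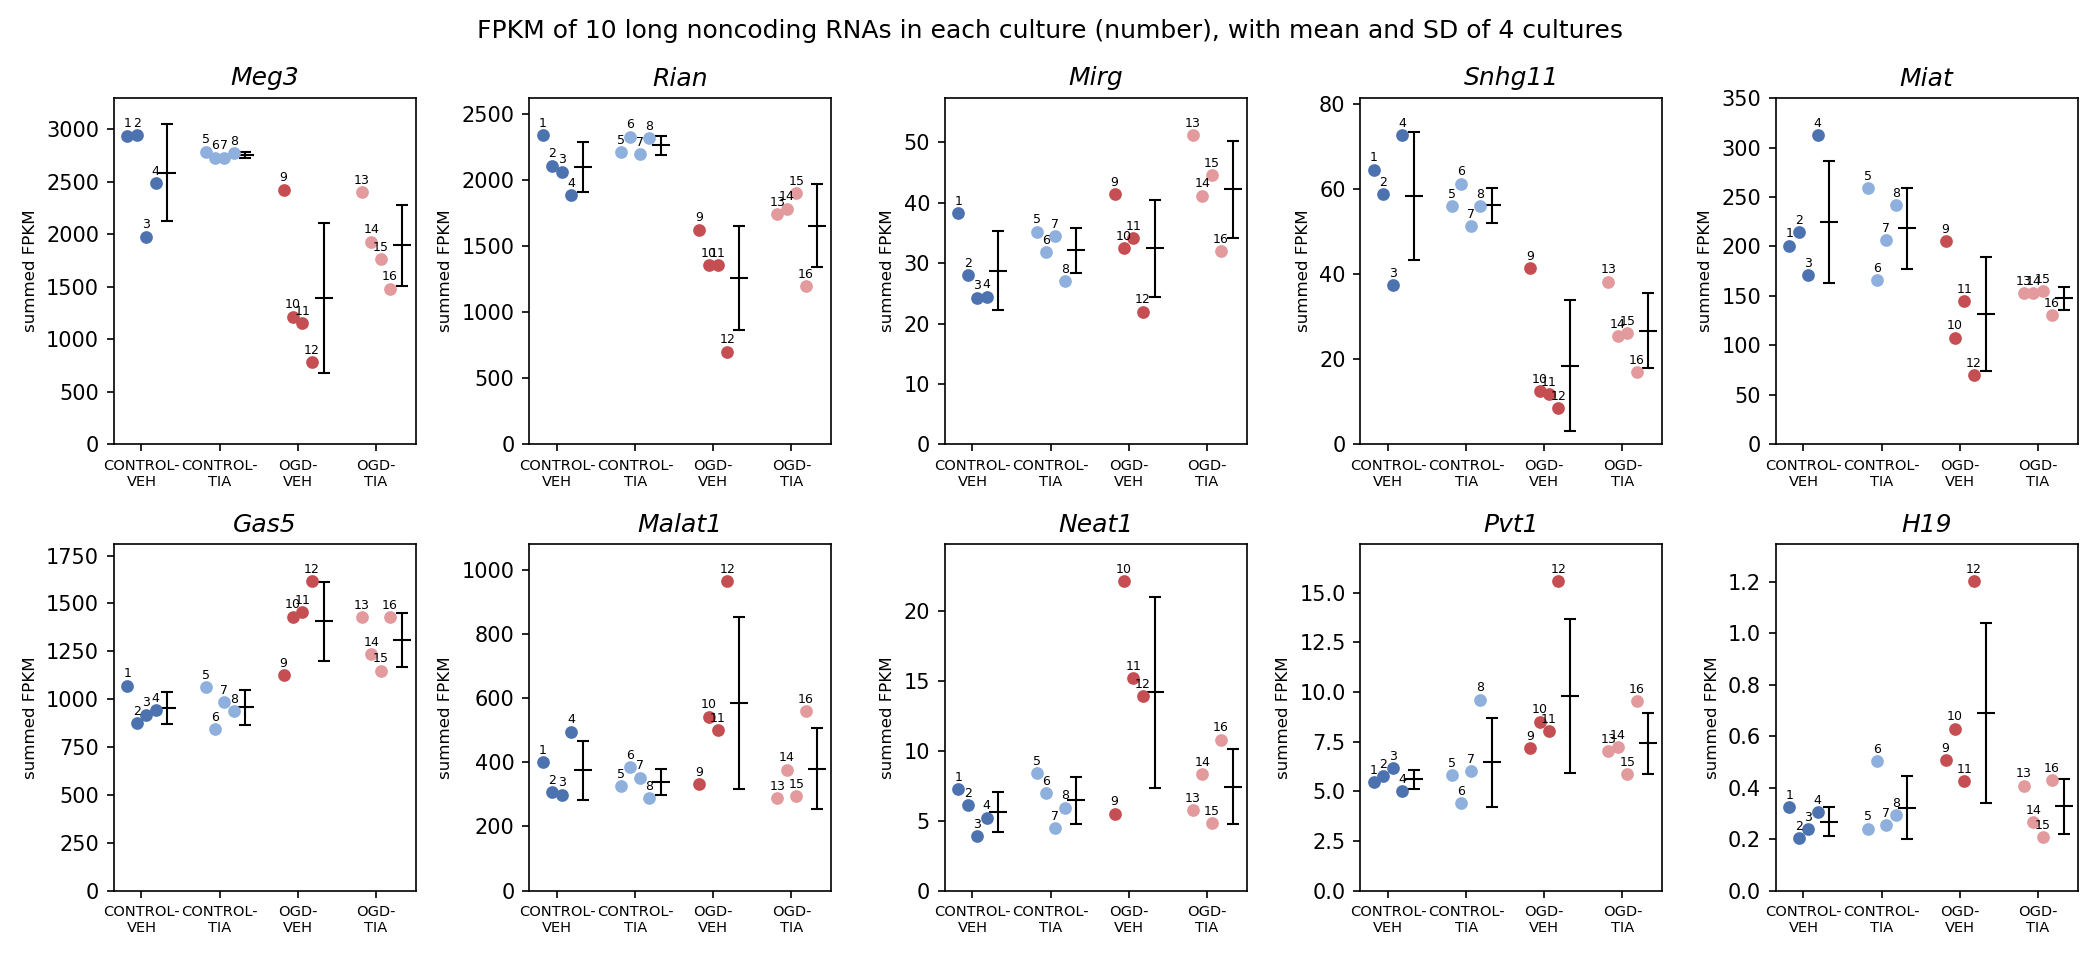
Summed FPKM (linear axis from 0) of each of the 10 RNAs in the 16 cultures, which are numbered, by group, with controls in blue, OGD in red and TIA in the paler shade. Bars give the mean and SD of 4 cultures. Snhg11 was at 37.3 to 72.7 FPKM in CONTROL-VEH and at 8.41 to 12.5 FPKM in 3 of the 4 OGD-VEH cultures.

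Meg3, a maternally expressed RNA with growth-restraining activity in cell lines, lies on chromosome 12 (GRCm38, 109541001 to 109571726, plus strand). It was at 2937, 2942, 1976 and 2484 FPKM in CONTROL-VEH and at 2424, 1214, 1151 and 783 FPKM in OGD-VEH. Culture 9 was above the lowest control and the other 3 OGD-VEH cultures were below all controls, so the groups overlapped. The log2 fold change was -1.0 (SE 0.31, padj = 0.0667, limma). With TIA, Meg3 was at 2786, 2729, 2727 and 2769 FPKM in CONTROL-TIA and at 2399.97, 1928, 1763 and 1482 FPKM in OGD-TIA. No OGD-TIA culture reached the lowest CONTROL-TIA value (log2 fold change -0.56, SE 0.13, padj = 0.116, limma; exact permutation p = 0.0286, two-sided, which is as low as 70 assignments can give, and 0.127 adjusted over the 40 such tests of members). Over both arms Meg3 fell by 0.78 on the log2 scale (SE 0.18, padj = 0.00721, limma). Without culture 9 Meg3 fell by 1.31 on the log2 scale in OGD-VEH (padj = 0.00478, limma).

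Rian, an RNA of unknown molecular function that hosts C/D-box snoRNAs, follows Meg3 on the same strand (chromosome 12, 109603940 to 109661716). It was at 2338, 2105, 2061 and 1884 FPKM in CONTROL-VEH and at 1622, 1354, 1356 and 700.4 FPKM in OGD-VEH. All OGD-VEH cultures were lower than all CONTROL-VEH cultures, with culture 12 the lowest (log2 fold change -0.80, SE 0.23, padj = 0.0603, limma; exact permutation p = 0.0286). In CONTROL-TIA it was at 2207, 2326, 2191 and 2317 FPKM and in OGD-TIA at 1738, 1781, 1899.7 and 1194 FPKM, again without overlap. That log2 fold change was -0.47 (SE 0.13, padj = 0.149, limma). Over both arms Rian fell by 0.64 on the log2 scale (SE 0.15, padj = 0.00656, limma).

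Mirg, the host of a miRNA cluster farther along the same strand (chromosome 12, 109729764 to 109749460), had no padj of 0.05 or less under the main settings. It was at 38.2, 28.0, 24.3 and 24.5 FPKM in CONTROL-VEH and at 41.4, 32.5, 34.2 and 22.0 FPKM in OGD-VEH, and the groups overlapped (log2 fold change 0.16, SE 0.22, padj = 0.624, limma; 95% interval -0.34 to 0.67). In CONTROL-TIA it was at 35.2, 31.8, 34.4 and 27.0 FPKM and in OGD-TIA at 51.2, 41.2, 44.5 and 32.0 FPKM, with 3 of the OGD-TIA cultures above all CONTROL-TIA cultures (log2 fold change 0.38, SE 0.16, padj = 0.237, limma). Over both arms the value was 0.27 (SE 0.14, padj = 0.143, limma). It passed as 0.34 with array quality weights (padj = 0.0401, limma), where 30.9% of all genes passed. It also passed in 1 of the 16 fits with 1 culture left out. That was 0.36 without culture 12 (padj = 0.0383, limma), where 27.0% of all genes passed.

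The ratio of Mirg to Meg3, a quantity chosen after the values were seen, was higher in every OGD culture than in every control culture. Its mean log2 was -6.49 ± 0.23 (SD, n = 4) in CONTROL-VEH and -5.33 ± 0.37 (SD, n = 4) in OGD-VEH, with an exact permutation p of 0.0286. It was -6.42 ± 0.18 (SD, n = 4) in CONTROL-TIA and -5.48 ± 0.12 (SD, n = 4) in OGD-TIA, with the same exact p. Culture 9, near the controls for Meg3 itself, was above them in this ratio. The adjusted p of either exact permutation test was 0.114 over the 16 tests of such quantities, and 0.0286 was the smallest p that the design allows. The ratio of Mirg to Rian gave differences of 0.96 without and 0.85 with TIA on the log2 scale and no overlap either, whereas the ratio of Rian to Meg3 overlapped in both arms (differences 0.20 and 0.09, exact permutation p = 0.4 and 0.571). The ratios compare summed FPKM and therefore levels per length. Mirg-207, the isoform with 57.6% of the Mirg FPKM, had a log2 fold change of -0.03 over both arms (SE 0.17, padj = 0.943, limma), and Mirg-209, with 14.1%, one of 1.03 (SE 0.98, padj = 0.567, limma), and the latter was at 0.001 FPKM in culture 16.

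**Figure D2:**
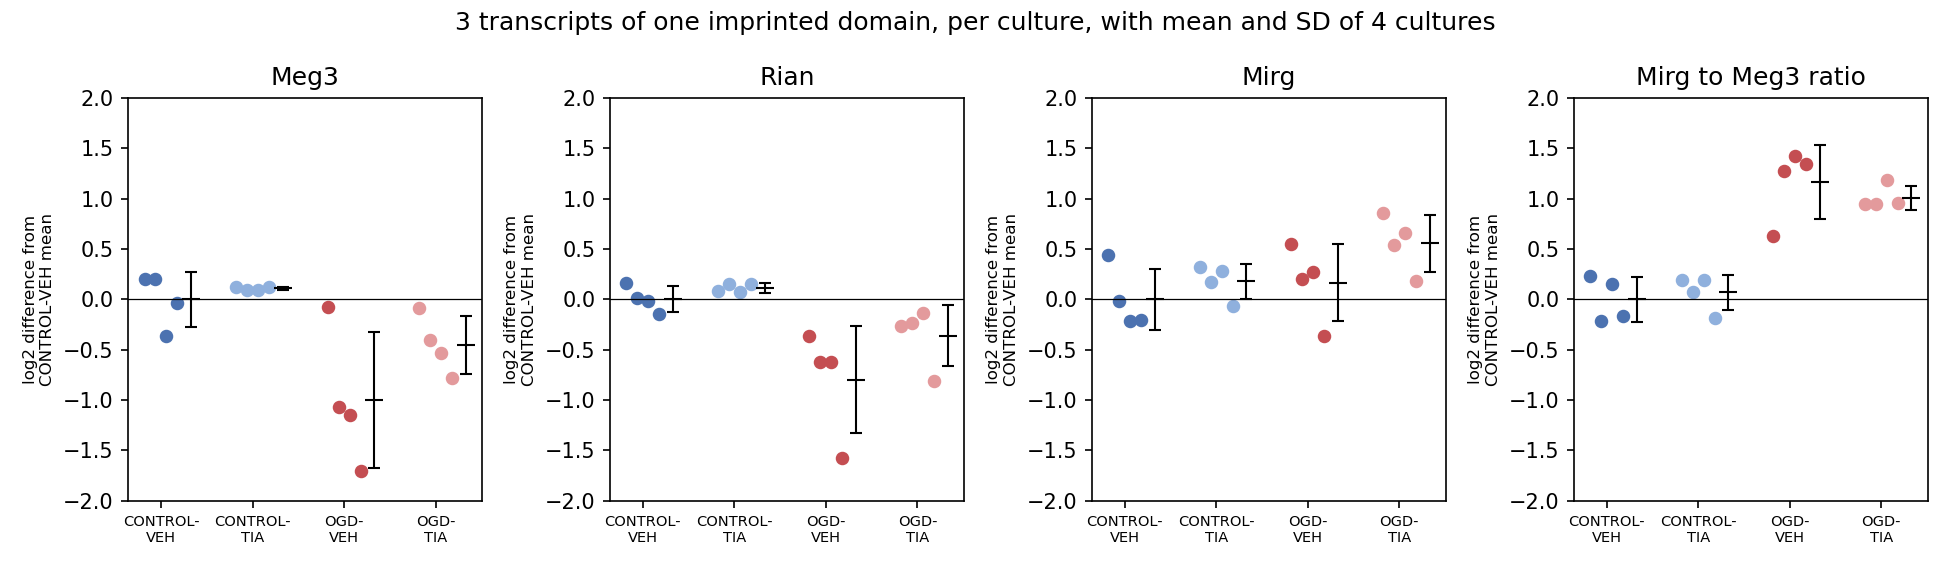
Meg3, Rian, Mirg and the ratio of Mirg to Meg3 in each culture, as the log2 difference from the CONTROL-VEH mean, with the mean and SD of 4 cultures per group. Every OGD culture lies above every control culture in the ratio, by 1.16 on average without and 0.94 with TIA.

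The annotation places 14 miRNA genes within Mirg, 4 within Rian and 2 within Meg3 on their strand, and 13 snoRNA genes within Rian. RefSeq lists 26 mature miRNAs for Mirg with 25 different seeds (bases 2 to 8). The libraries were made from mRNA, and levels of mature miRNAs were not measured. The mature sequences below are shown because their host lies in the same domain as Meg3 and Rian, which fell over both arms. The summed FPKM of Mirg did not fall with them. However, all the sequences shown lie before the starts of Mirg-207 (109747964) and Mirg-209 (109743801), with 57.6% and 14.1% of the Mirg FPKM. The summed level of Mirg therefore rests mostly on isoforms that do not contain these miRNAs. The seed is in capitals. The first 4 lie in exons of a Mirg isoform, and the last 2, in introns, are the pair with a common seed.
miR-134-5p: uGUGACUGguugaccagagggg
miR-485-3p: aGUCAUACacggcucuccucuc
miR-377-3p: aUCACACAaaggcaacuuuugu
miR-410-3p: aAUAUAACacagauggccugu
miR-453: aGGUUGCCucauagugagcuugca
miR-496a-5p: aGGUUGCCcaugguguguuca

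Of the 8 other genes listed for the domain, 5 passed the filter and none was a DEG after OGD without TIA. Dlk1, a paternally expressed Notch-like protein of the domain, had 1.03 to 5.06 FPKM in CONTROL-VEH cultures and 3.50 to 10.1 FPKM in those of OGD-VEH (log2 fold change 1.29, SE 0.49, padj = 0.103, limma), and it rose over both arms (1.06, SE 0.28, padj = 0.0121, limma). Begain, a gene at the edge of the domain, fell over both arms by 0.38 on the log2 scale (SE 0.08, padj = 0.00441, limma). In a wider list of 22 imprinted genes, 17 were tested. Of these, 1 rose and 2 fell in OGD-VEH with a padj of at most 0.05, against 8.44% of all genes. Peg10, a retrotransposon-derived gene, rose (log2 fold change 1.10, padj = 0.0336), and Peg3 (-0.64, padj = 0.0406) and Peg13 (-0.55, padj = 0.0367) fell (limma). The median of the list was -0.12 against 0.10 for all genes.

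Snhg11 was the member with the largest fold change. It lies on chromosome 2 (GRCm38, 158375638 to 158386145, plus strand), hosts 2 snoRNA genes in the annotation, which types it as protein coding, and is an RNA found mostly in neurons. It was at 64.5, 58.8, 37.3 and 72.7 FPKM in CONTROL-VEH and at 41.4, 12.5, 11.7 and 8.41 FPKM in OGD-VEH. Culture 9 was above control culture 3, and the other 3 OGD-VEH cultures were far below every control. The log2 fold change was -1.91 (SE 0.46, 95% interval -2.96 to -0.85, padj = 0.0449, limma). The padj of this fall was above 0.05 in limma when any one of 7 of the 8 cultures was left out, with log2 fold changes from -2.39 to -1.63 and padj from 0.00241 (without culture 9) to 0.121 (without culture 10), and it was 0.0904 without a filter on low values. In CONTROL-TIA Snhg11 was at 56.0, 61.3, 51.3 and 56.0 FPKM and in OGD-TIA at 38.2, 25.5, 26.2 and 16.96 FPKM. No OGD-TIA culture reached the CONTROL-TIA range (log2 fold change -1.12, SE 0.22, padj = 0.108, limma; exact permutation p = 0.0286). With isoforms weighted by length the padj in limma was 0.0491, where 1.66% of all genes passed. With array quality weights it was 0.0394, where 1.19% passed. Over both arms Snhg11 fell by 1.51 on the log2 scale (SE 0.28, padj = 0.00279, limma), and this held with each of the 16 cultures left out. Its main isoform, Snhg11-201 of 5864 bases, carried 96.0% of the summed FPKM and fell by 1.55 over both arms (padj = 0.0114 over all isoforms, limma). The 9 neuronal markers had a median log2 fold change of -0.96 in OGD-VEH, and the astrocyte markers one of 0.79. Their part in the value of Snhg11 was not tested.

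Miat, a long nuclear RNA on chromosome 5 (GRCm38, 112213228 to 112229395, minus strand), was at 201, 214, 171 and 313 FPKM in CONTROL-VEH and at 205, 108, 145 and 69.6 FPKM in OGD-VEH. Only culture 9 of OGD-VEH was within the control range (log2 fold change -0.84, SE 0.32, padj = 0.107, limma). In CONTROL-TIA it was at 259, 166, 206 and 242 FPKM, and all 4 OGD-TIA cultures, at 153, 153, 155 and 130 FPKM, were lower (log2 fold change -0.55, SE 0.14, padj = 0.135, limma). Over both arms Miat fell by 0.69 on the log2 scale (SE 0.19, padj = 0.0135, limma).

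The annotation types 10 genes within Gas5 as snoRNA, among them Mir5117, and lists Snord80 more than once. Gas5 is known to build up when cell growth stops and lies on chromosome 1 (GRCm38, 161034422 to 161038539, plus strand). It was at 1070.4, 875, 919 and 943 FPKM in CONTROL-VEH and at 1124, 1430.3, 1454 and 1615 FPKM in OGD-VEH. All OGD-VEH cultures were higher than all CONTROL-VEH cultures, culture 9 least so. Gas5 rose by 0.55 on the log2 scale (SE 0.12, padj = 0.038, limma). The padj was above 0.05 with any one of 7 of the 8 cultures left out and at most 0.111. In CONTROL-TIA it was at 1064, 843, 983 and 937 FPKM and in OGD-TIA at 1427, 1234, 1148 and 1426 FPKM, without overlap (log2 fold change 0.45, SE 0.10, padj = 0.114, limma). Over both arms Gas5 rose by 0.50 (SE 0.08, padj = 0.00138, limma), the smallest padj of any member there.

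Of the 3 snoRNA hosts among the members, Gas5 rose and Snhg11 and Rian fell over both arms. Of 18 other snoRNA host genes on a list, 16 were tested in OGD-VEH against CONTROL-VEH, and 7 rose and none fell with a padj of at most 0.05 (8.44% of all genes in either direction), none of them as a DEG. The median log2 fold change of the list was 0.56 against 0.10 for all genes, and 0.46 against 0.04 with TIA. Snhg15 rose by 1.0, Zfas1 by 0.73 and Snhg1 by 0.98 on the log2 scale (padj = 0.0336, 0.0336 and 0.0337, limma). Zfas1 was at 65.3 to 81.8 FPKM in CONTROL-VEH and at 103 to 139 FPKM in OGD-VEH. Spliced Gas5 is normally removed by nonsense-mediated decay. Of 12 factors of that pathway, none had a padj of at most 0.05 in this comparison, and their median was 0.20. Over both arms 4 of the 12 rose, near the 32.1% of all genes that changed there, and Upf1 rose by 0.34 (padj = 0.00261, limma).

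Promoters are shown for Meg3 and Gas5, which hold a motif match, and for Snhg11, the member with the largest fold change. RefSeq windows of 300 bases (250 before and 50 after the start, GRCm38.p6) were found for 7 of the 10 members. In them, both strands were searched for the cAMP response element TGACGTCA, the AP-1 motif TGANTCA and the E-box CACGTG, none of which contains another. They occur in 1.79%, 7.81% and 7.15% of 32851 promoters. Meg3 has 1 match to TGACGTCA beginning 57 bases before the start of its first window, and Gas5 has 1 beginning 46 bases before the start of its second window. No other window of a member holds any of the 3 motifs. The matches are in capitals, and a match describes letters only. The windows are Meg3 (chr12:109540746-109541045, plus strand), Gas5 (chr1:161034916-161035215, plus strand) and Snhg11 (chr2:158375463-158375762, plus strand), the last without a match.
Meg3 promoter: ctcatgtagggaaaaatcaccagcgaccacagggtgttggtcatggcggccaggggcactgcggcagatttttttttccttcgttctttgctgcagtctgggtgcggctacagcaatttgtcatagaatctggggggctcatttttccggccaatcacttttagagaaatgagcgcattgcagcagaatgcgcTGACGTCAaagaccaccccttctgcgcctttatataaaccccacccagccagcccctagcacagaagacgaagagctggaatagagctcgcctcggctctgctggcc
Gas5 promoter: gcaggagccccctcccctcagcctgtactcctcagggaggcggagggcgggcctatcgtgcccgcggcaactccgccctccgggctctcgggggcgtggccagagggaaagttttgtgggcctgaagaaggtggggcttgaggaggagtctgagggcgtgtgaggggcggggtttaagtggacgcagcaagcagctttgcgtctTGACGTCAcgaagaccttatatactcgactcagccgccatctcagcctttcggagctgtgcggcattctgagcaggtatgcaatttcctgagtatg
Snhg11 promoter: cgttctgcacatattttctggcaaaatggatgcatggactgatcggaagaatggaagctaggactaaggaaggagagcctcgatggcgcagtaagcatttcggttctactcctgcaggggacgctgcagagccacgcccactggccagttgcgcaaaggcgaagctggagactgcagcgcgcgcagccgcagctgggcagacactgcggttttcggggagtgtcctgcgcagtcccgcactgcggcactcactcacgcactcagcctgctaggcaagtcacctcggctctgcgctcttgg

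Malat1, on chromosome 19 (GRCm38, 5795690 to 5802672, minus strand), did not pass the test in any comparison under the main settings. With array quality weights Malat1 rose by 0.60 on the log2 scale in OGD-VEH (SE 0.19, padj = 0.0379, limma), where 38.8% of all genes passed. It was at 400.1, 307, 299 and 496 FPKM in CONTROL-VEH and at 333, 542, 499.8 and 965 FPKM in OGD-VEH. Cultures 10, 11 and 12 were above all controls and culture 9 was within them (log2 fold change 0.56, SE 0.31, padj = 0.221, limma). With TIA it was at 325, 384, 352 and 289 FPKM in CONTROL-TIA and at 289, 377, 295 and 560.2 FPKM in OGD-TIA, and only culture 16 was above the controls (0.13, SE 0.21, padj = 0.762, limma).

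Neat1, its neighbour on the same strand (chromosome 19, 5824708 to 5845478), was at 7.27, 6.12, 3.90 and 5.21 FPKM in CONTROL-VEH and at 5.50, 22.1, 15.2 and 13.9 FPKM in OGD-VEH. Cultures 10, 11 and 12 were above all controls and culture 9 was among them. The log2 fold change was 1.19 (SE 0.40, 95% interval 0.28 to 2.11, padj = 0.0794, limma), and without culture 9 it was 1.59 with a padj of 0.00569. In CONTROL-TIA it was at 8.39, 6.99, 4.48 and 5.92 FPKM and in OGD-TIA at 5.76, 8.33, 4.84 and 10.8 FPKM, where the groups overlapped (0.17, SE 0.28, padj = 0.763, limma). For Neat1 the OGD effect under TIA minus the one under vehicle was -1.02 (SE 0.52, unadjusted p = 0.0692, padj = 0.722, limma), which did not pass the test.

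The 3′ ends of Malat1 and of the long Neat1 isoform share a pattern that is known to fold into a triple helix and to protect these RNAs, which end there without a poly(A) tail. How well mRNA libraries captured them was not tested. Both ends are shown with 2 U-rich motifs, TTTCTTTT and TTTTGCTTT, and the A-rich tract AAAAGCAAA in capitals, written as DNA from GENCODE M21 transcripts. The stretch of Malat1-201 is positions 6598 to 6700 of 6983. It runs past the A-rich tract, and 283 annotated bases follow it. That of Neat1-201 is positions 20672 to 20771 of 20771.
Malat1-201: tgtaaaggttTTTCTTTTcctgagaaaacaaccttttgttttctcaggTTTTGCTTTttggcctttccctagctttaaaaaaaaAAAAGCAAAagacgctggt
Neat1-201: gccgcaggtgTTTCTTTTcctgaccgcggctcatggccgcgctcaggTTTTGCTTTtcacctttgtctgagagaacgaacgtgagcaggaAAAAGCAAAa

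The short isoform Neat1-202, which ends at its own poly(A) site and lacks this end, carried 89.8% of the summed Neat1 FPKM. It was at 6.58, 4.70, 3.87 and 4.29 FPKM in CONTROL-VEH and at 5.43, 17.8, 13.9 and 13.7 FPKM in OGD-VEH, where again culture 9 alone was among the controls. Its log2 fold change was 1.27 (SE 0.38, padj = 0.159 over all isoforms, limma). The long Neat1-201 of 20771 bases was listed at 0.071, 0.106, 0.028 and 0.051 FPKM in CONTROL-VEH and at 0.069, 0.271, 0.288 and 0.232 FPKM in OGD-VEH, the same cultures being high as for the short form. It was under the filter on low values and was not fitted in limma. Between OGD and control cultures, Neat1-201 overlapped without TIA (exact permutation p = 0.0857) and with TIA (exact permutation p = 0.0571). As a percent of Neat1-201 plus Neat1-202 it was 1.29 ± 0.64 (SD, n = 4) in CONTROL-VEH and 1.61 ± 0.32 (SD, n = 4) in OGD-VEH, and the groups overlapped (exact permutation p = 0.4). It was 1.16 ± 0.13 (SD, n = 4) in CONTROL-TIA and 1.81 ± 0.35 (SD, n = 4) in OGD-TIA, also with overlap (exact permutation p = 0.0571, adjusted p = 0.183).

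Of 19 paraspeckle proteins, 2 rose with a padj of at most 0.05 in OGD-VEH and none fell, near the 8.44% of all genes. These were Ewsr1 (log2 fold change 0.41, padj = 0.0443) and Tardbp (0.50, padj = 0.0462, limma), and the median of the list was 0.25 against 0.10 for all genes. Sfpq and Nono, which are essential to paraspeckles, had log2 fold changes of 0.33 and 0.25 (padj = 0.162 and 0.114, limma). Of 18 nuclear speckle proteins, 2 rose and 1 fell with a padj of at most 0.05, against the same 8.44% of all genes. The splicing factors Srsf6 and Srsf3 rose by 0.47 and 0.62 (padj = 0.0496 and 0.0498, limma). Celf3, a neuronal splicing regulator, fell by 0.88 (padj = 0.0347, limma), and the median of this list was 0.20.

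Pvt1, on chromosome 15 (GRCm38, 62037986 to 62378096, plus strand), was at 5.45, 5.76, 6.17 and 5.02 FPKM in CONTROL-VEH and at 7.16, 8.52, 8.02 and 15.6 FPKM in OGD-VEH. All OGD-VEH cultures were higher than the controls, and culture 12 stood far above the other 3 (log2 fold change 0.73, SE 0.24, padj = 0.0756, limma). With TIA, CONTROL-TIA cultures at 5.80, 4.39, 6.00 and 9.62 FPKM overlapped OGD-TIA cultures at 7.03, 7.23, 5.87 and 9.56 FPKM (0.23, SE 0.24, padj = 0.609, limma). Myc, the neighbouring transcription factor gene, was at 27.1 to 48.8 FPKM in CONTROL-VEH and at 52.6 to 84.9 FPKM in OGD-VEH and rose by 0.93 on the log2 scale (SE 0.21, padj = 0.0427, limma). A list of 10 genes around Myc and p53 was chosen with earlier results of these data known, so its shares are a description only. In it, 6 rose and none fell with a padj of at most 0.05, against 8.44% of all genes. Among them 3 were DEGs, against 4.09% of all genes: Trp53 (2.0, padj = 0.0347), Sesn2 (1.25, padj = 0.0383) and Ccng1 (1.50, padj = 0.0393, limma).

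H19, on chromosome 7 (GRCm38, 142575529 to 142578143, minus strand), was under 0.5 FPKM on average in all comparisons but OGD-TIA with OGD-VEH. It was at 0.325, 0.204, 0.239 and 0.304 FPKM in CONTROL-VEH and at 0.508, 0.629, 0.426 and 1.20 FPKM in OGD-VEH, without overlap. In CONTROL-TIA it was at 0.240, 0.504, 0.253 and 0.292 FPKM and in OGD-TIA at 0.408, 0.267, 0.208 and 0.428 FPKM, and those groups overlapped. Fitted without a filter, the OGD-VEH value had a log2 fold change of 1.03 (SE 0.35, padj = 0.144, limma). Igf2, its imprinted partner, was at most at 0.261 FPKM in OGD-VEH and 0.193 FPKM in CONTROL-VEH.

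**Figure D3:**
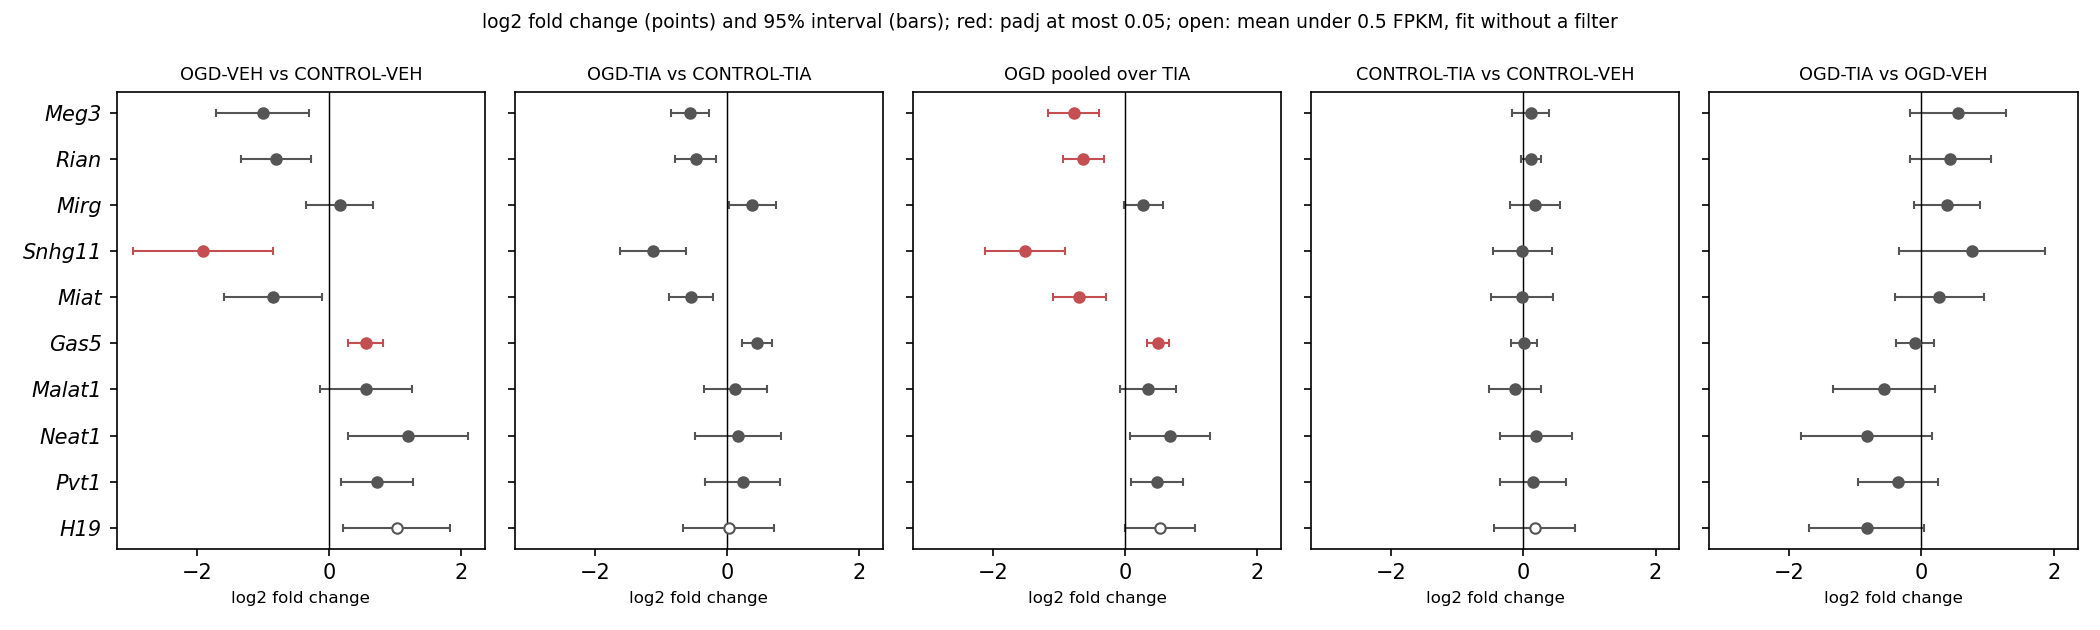
Log2 fold change (points) and 95% interval (bars) of each RNA in 5 comparisons. Red marks a padj of at most 0.05 in limma and open circles mark values fitted without a filter. Snhg11 and Gas5 are red in OGD-VEH against CONTROL-VEH, 5 members are red in the pooled OGD comparison, and none is red in the other 3.

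For TIA by itself, no member passed the test. In CONTROL-TIA against CONTROL-VEH, 0 of 9 members and 0% of 16170 genes were DEGs, and 621 genes had an unadjusted p under 0.05. The member log2 fold changes lay between -0.13 (Malat1) and 0.19 (Neat1), with a padj of 0.999 for each in limma. The 95% interval was -0.16 to 0.38 for Meg3, -0.46 to 0.43 for Snhg11 and -0.19 to 0.21 for Gas5. No member separated the groups, against 2.06% of all genes.

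Between the OGD groups, 0 of 10 members and 0% of 16351 genes were DEGs, and 1293 genes had an unadjusted p under 0.05. Meg3, Rian, Mirg, Miat and Snhg11 had higher means in OGD-TIA, with log2 fold changes from 0.27 (Miat) to 0.76 (Snhg11), and Malat1, Neat1, Pvt1, Gas5 and H19 had lower ones, from -0.83 to -0.10. Every padj was at least 0.551 (limma). The interval for Snhg11 was -0.34 to 1.87 and that for Neat1 -1.82 to 0.16, and both include 0. With array quality weights, which weigh each culture by its fit, Neat1 was lower in OGD-TIA by the test (log2 fold change -1.28, SE 0.32, padj = 0.0486, limma), as 1 of 408 DEGs. There, 1 of 10 members had a padj of at most 0.05, near the 9.42% of all genes. No member separated the groups, against 3.8% of all genes. In OGD-TIA against CONTROL-TIA, 0 of 9 members and 0% of 16242 genes were DEGs, with 3174 genes at an unadjusted p under 0.05, and 5 of 9 members separated the groups (Meg3, Rian, Miat, Snhg11 and Gas5) against 16.2% of all genes. The interaction of OGD and TIA gave 0 of 9 members and 0% of 16313 genes, with 988 genes at an unadjusted p under 0.05. It was 0.78 for Snhg11 (SE 0.55) and 0.44 for Meg3 (SE 0.36), with padj of 0.722 and 0.739 in limma.

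Short isoforms weighed more in the summed FPKM of these RNAs than in their reads. Miat-206, of 357 bases, carried 64.3% of the summed Miat FPKM and 6.12% of its estimated reads, whereas Miat-201, of 8758 bases, carried 32.9% and 88.6%. Meg3-203 (457 bases) carried 42.8% of the FPKM and Meg3-209 (14548 bases) 7.86%, but 68.4% of the reads. Malat1-201 (6983 bases) carried 23.0% of the FPKM and 80.0% of the reads. A long and a short form of Meg3 both fell: over both arms Meg3-209 fell by 0.89 and Meg3-203 by 0.98 on the log2 scale (padj = 0.0352 and 0.0222 over 53201 isoforms, limma). The short Meg3-210 and Meg3-211, with 16.2% and 14.5% of the FPKM, did not pass. Their log2 fold changes were -0.63 and -0.55 (padj = 0.0645 and 0.102, limma). Rian-208, Rian-207 and Rian-202 fell by 0.73, 0.53 and 0.57 (padj = 0.0261, 0.0341 and 0.0277, limma), and these were above 0.05 in 3, 7 and 6 of the 16 fits with 1 culture left out. For Miat, the short Miat-206 fell by 0.88 (padj = 0.0457), and the long Miat-201 had a log2 fold change of -0.40 (SE 0.13, padj = 0.068, limma). The padj of Miat-206 rose above 0.05 with any one of 14 of the 16 cultures left out.

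Gas5-221, of 403 bases, and Gas5-224, of 502 bases, rose over both arms by 0.49 and 0.95 on the log2 scale (padj = 0.0148 and 0.0207, limma). Gas5-224 was at 75.8, 161, 77.4 and 94.2 FPKM in CONTROL-VEH, at 208, 228, 224 and 323 FPKM in OGD-VEH and at 102, 80.5, 149 and 189 FPKM in OGD-TIA. All 4 OGD-VEH cultures were above all OGD-TIA cultures for this isoform, which was picked out after its values were seen (log2 fold change -0.97, SE 0.28, padj = 0.724 over all isoforms, limma; exact permutation p = 0.0286). Mirg-207 also separated these groups, with OGD-TIA above OGD-VEH. Its log2 fold change was 0.58 (SE 0.26, padj = 0.724, limma, and exact permutation p = 0.0286). The share of all isoforms that separate these groups was not computed. Gas5-224 lies within overlapping isoforms of one gene, and reads were divided between them by probability. For Malat1-203, of 485 bases, culture 3 was at 3.31 FPKM and the other CONTROL-VEH cultures were at 75.1 to 142 FPKM, while the long Malat1-201 was at 79.9 FPKM in culture 3 and at 83.3 to 118 FPKM in the others.

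**Figure D4:**
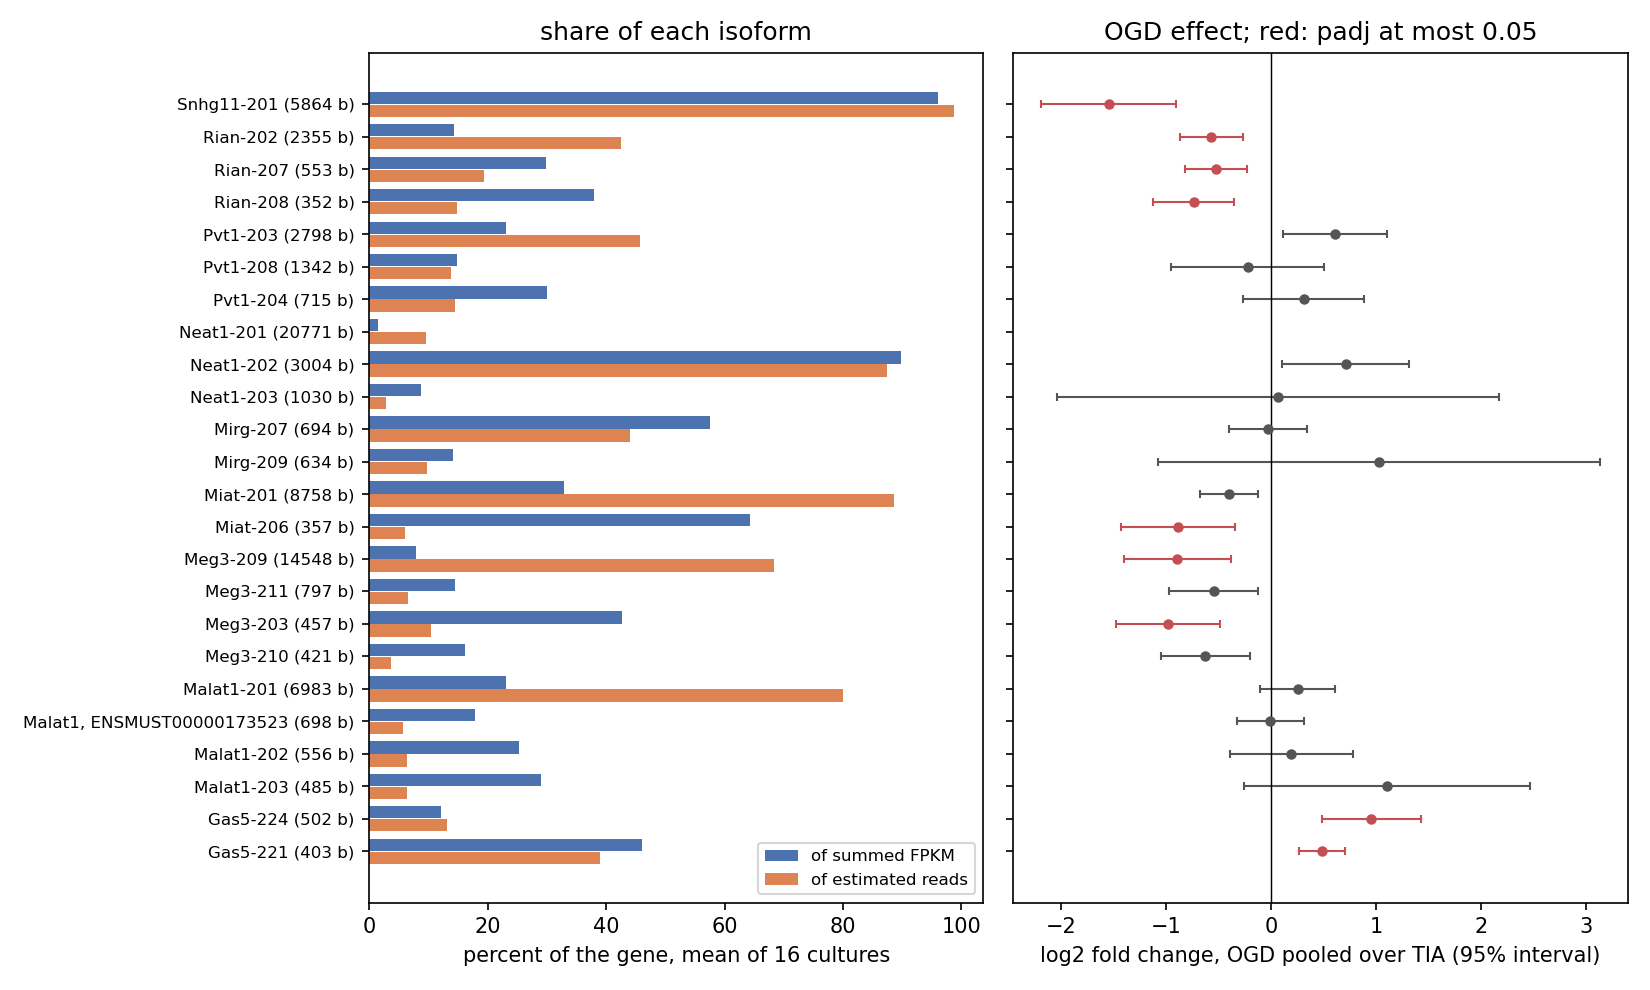
Left, percent of a gene's summed FPKM and of its estimated reads in each isoform (length in bases), as means of 16 cultures. Right, log2 fold change and 95% interval of OGD pooled over TIA, with red for a padj of at most 0.05 and no point for Neat1-201, which was under the filter. Miat-201 carries 32.9% of the FPKM and 88.6% of the reads.

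Across the 16 cultures, most members followed each other in 2 sets, given as a description over cultures that share the OGD contrast. Mirg followed neither set closely, with Pearson's r from -0.46 (Malat1) to 0.25 (Rian), and H19 was left out for its low level. Meg3 correlated with Snhg11 (Pearson's r 0.97), Rian (0.91) and Miat (0.86) and, with a negative sign, with Gas5 (-0.80), Malat1 (-0.78) and Neat1 (-0.72). With the group means removed, r was 0.95 for Meg3 with Snhg11, 0.76 with Rian and 0.79 with Mirg, whereas Meg3 and Mirg gave 0.25 over all cultures. Among the 14604 other genes averaging 1 FPKM or more, those most like Snhg11 were Gm27000 (0.99), Pfkp (0.98) and Spock3 (0.98), and those most like Meg3 were Pfkp (0.98), Sptbn4 (0.98) and Rnf112 (0.97). Rian was most like Gpr26 (0.99), Slc7a14 (0.98) and Gpr61 (0.98), and Miat like Hexdc, Susd4 and Caskin1 (0.93 to 0.94). Gas5 was most like 1810030O07Rik (0.96), Usp8 and Ranbp1 (0.95 each), Malat1 like Adamts6 (0.97), Sspn and Rnaset2b (0.95 each), and Neat1 like Cpeb1 (0.93), Nfkb1 and Spin4 (0.91 each). Mirg was most like Dpp9 (0.92), Caml (0.90) and Wdr5 (0.88), and Pvt1 like Depdc7 (0.94), Zfp287 (0.93) and Mmgt1 (0.92).

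Other long noncoding RNAs of a general list served as a comparison. Of 39 listed, 27 were tested in OGD-VEH against CONTROL-VEH. None was a DEG, against 4.09% of all genes. With a padj of at most 0.05, 1 rose and 3 fell, against 8.44% of all genes. Their median log2 fold change was 0.25 against 0.10 for all genes. Among those that fell were 1700020I14Rik (-0.59, padj = 0.0336) and 2900097C17Rik (-0.59, padj = 0.0339, limma).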

How the data were processed

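RNA-seq values of 16 cultures in 4 labelled groups of 4 were used. Per the labels and the study's methods, 50-base single-end reads were mapped with STAR to GRCm38. The authors deposited FPKM per isoform, estimated with eXpress and, by the name of the table, scaled by TMM. Versions of the tools are not given in the sources used here. The authors also ran DESeq2 on counts, which were not used here.

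Isoform FPKM were summed per symbol, and 74 lines without an identifier were left out. Names, types, lengths and positions came from GENCODE M21 (103 of the 104 member isoforms matched), and promoter and miRNA sequences from RefSeq (GRCm38.p6). Depth was estimated from the smallest steps of FPKM in 17546 genes with a single isoform, and estimated reads per isoform follow from FPKM, length and depth. Because reads were assigned by probability, no counting intervals were computed.

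Log2(FPKM + 0.1) was fitted, for genes averaging 0.5 FPKM or more over the cultures compared, with limma 3.58.1 in R 4.3.3 (empirical Bayes with a trend), tested on simulated data, and p was adjusted by Benjamini-Hochberg over all genes. The 4 comparisons used their 8 cultures, and the interaction and the pooled OGD effect all 16. For single members and ratios, exact permutation over 70 assignments (two-sided) was added. H19 was read from a fit without a filter where it averaged under 0.5 FPKM. Python 3.11.15, numpy 2.4.6, pandas 2.3.3 and matplotlib 3.10.9 were used.

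The text names the 10 members in every comparison, isoforms with at least 10% of a gene's FPKM, the 3 genes most like each member, and of each list the DEGs or the 3 smallest p, plus fixed neighbours and partners. Meg3-209, Neat1-201 and the ratios were added after the values were seen. The members, lists and markers were chosen with earlier results of these data known. Alternatives were a pseudocount of 1 or 0.01, no filter, a minimum of 2 FPKM, median-ratio scaling, isoforms weighted by length, robust empirical Bayes, array quality weights, one fit of all cultures and leaving out each culture.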

Additional observations from a re-analysis of the deposited data

Results flagged for a closer look

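Of 132 sets of 4 cultures examined (10 members and their named isoforms in 4 groups), 10 had 1 culture far from the other 3 by Dixon's test, where chance alone flags about 5% of sets. Snhg11 was at 41.4 FPKM in culture 9 of OGD-VEH and at 8.41 to 12.5 FPKM in the other 3, and its isoform Snhg11-201 was at 39.3 FPKM there and at 7.36 to 11.2 FPKM in the others. Pvt1 was at 15.6 FPKM in culture 12 of OGD-VEH (others 7.16 to 8.52 FPKM), and Gas5-224 was at 323 FPKM in the same culture (others 208 to 228 FPKM). Miat was at 130.3 FPKM in culture 16 of OGD-TIA, where the others were at 153 to 155 FPKM. Pvt1-208 was at 1.82 FPKM in culture 7 of CONTROL-TIA (others 0.794 to 0.889 FPKM), and Rian-207 was at 706 FPKM in culture 6 of CONTROL-TIA (others 663 to 669 FPKM). H19-205 was at 0.064 FPKM in culture 1, 0.236 FPKM in culture 10 and 0.003 FPKM in culture 16, with at most 0.003 FPKM in the other cultures of each of those groups.

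The 74 lines without an identifier entered no comparison. Their summed FPKM was 481.7 to 579 in the 8 control cultures and above that range in 6 of the 8 OGD cultures: 642 in culture 10, 692 in culture 11 and 607 in culture 12 of OGD-VEH, and 606 in culture 13, 597 in culture 14 and 609.8 in culture 16 of OGD-TIA. What these lines stand for was not tested.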

How the results depend on the processing

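Counts of DEGs depended on the settings. In OGD-VEH against CONTROL-VEH, the 668 DEGs became 36 without a filter, 1070 with isoforms weighted by length, 1929 with array quality weights and 1412 with all cultures in one fit, and 1 (without CONTROL-VEH culture 2 or 3) to 2186 (without OGD-VEH culture 9) with 1 culture left out. In OGD-TIA against CONTROL-TIA the count of 0 became 7, 62, 80 and 1 under the same settings, and 0 to 16 (without OGD-TIA culture 16) with 1 culture left out. It became 4 without a filter in CONTROL-TIA against CONTROL-VEH, 4 without a filter and 408 with array quality weights between the OGD groups (0 to 2 with 1 culture left out), and 3 and 101 for the interaction (0 to 1). The pooled 780 became 394 with a pseudocount of 1 and were 526 to 1058 with 1 culture left out. Among the members, 6 had a padj of at most 0.05 in OGD-VEH with isoforms weighted by length (Meg3, Rian, Neat1, Pvt1, Snhg11 and Gas5), 8 with array quality weights and 7 with all cultures in one fit, against 2, where 24.6%, 38.8% and 28.3% of all genes passed, against 8.44%. None did without a filter (0.144% of all genes). Without OGD-VEH culture 9 the number was 7 (30.5% of all genes), with Meg3, Rian, Miat, Neat1 and Pvt1 added to Snhg11 and Gas5. The causes were not tested. With a pseudocount of 0.01, a minimum of 2 FPKM, median-ratio scaling or robust empirical Bayes, every result computed (73, 72, 126 and 73) kept its direction and its side of the threshold, or for a count stayed within 1.5 times.

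Values near 0 changed sign. With array quality weights Malat1 was at -0.022 in OGD-TIA against CONTROL-TIA. In CONTROL-TIA against CONTROL-VEH, Miat was at 0.014 and Gas5 at -0.0017 with isoforms weighted by length, and Miat at 0.038, Snhg11 at 0.054 and Gas5 at -0.013 with array quality weights. With 1 culture left out, the log2 fold changes there ranged from -0.23 to 0.015 for Malat1, -0.014 to 0.18 for Meg3, -0.14 to 0.15 for Miat, -0.22 to 0.10 for Snhg11, -0.062 to 0.31 for Pvt1 and -0.046 to 0.066 for Gas5. In OGD-TIA against CONTROL-TIA they ranged from -0.078 to 0.24 for Malat1 and -0.030 to 0.35 for Neat1, and between the OGD groups from -0.00047 to 0.52 for Miat. For isoforms they ranged from -0.34 to 0.033 for Mirg-207 in OGD-VEH and, over both arms, from -0.11 to 0.11 for Mirg-207, -0.084 to 0.066 for the Malat1 isoform ENSMUST00000173523 and -0.33 to 0.040 for Pvt1-208. No paired analysis was possible because the culture numbers run from 1 to 16 and no number occurs in more than 1 group.

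Precision was limited by 4 cultures per group, by the spread within OGD-VEH and, for H19 and Neat1-201, by few reads.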
